A study of Mus musculus with 12 samples.

Results

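The 25 transcripts described here encode splicing factors and RNA helicases, and were taken by the start of their gene symbol (Snrp, Lsm, Srsf, Hnrnp, Sf3, Prpf, U2af, Rbm, Ddx or Dhx) from a table of 20561 mouse transcripts. The table carries transcript identifiers and no gene names. Names were paired with 2634 of its transcripts through supplemental lists of the same study, of which the copies used here hold only part. RefSeq lists 183 protein-coding mouse genes under the 10 prefixes, so the 25 are 13.7% of them, with 7 Snrp, 5 Hnrnp, 5 Rbm and 4 Ddx genes and 1 each of Lsm, Prpf, U2af and Dhx. No Srsf or Sf3 transcript was named by these lists. Of the 25, 19 were named through the list of transcripts with raised translation efficiency (TE, ribosome footprints per mRNA) in Prps2null lymphomas, 5 through a table of 5′ untranslated regions alone, and Ddx25 through a list of genes raised in both RNA and footprints. Most members were thus chosen by the genotype difference in footprints per mRNA measured in these same libraries, and differences between genotypes are given as a description. Where members are counted as called by a fit over all transcripts, the count stands beside the share called over all transcripts and is no independent test of the members.

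The series compared B cell lymphomas of the genotype Eμ-Myc/+ with those of the genotype Eμ-Myc/+ Prps2null, which lack PRPS2, an enzyme that makes the phosphoribosyl pyrophosphate used for nucleotide synthesis. Both groups carried the Eμ-Myc transgene, in which the immunoglobulin heavy chain enhancer drives Myc in B lineage cells, and all samples were untreated. Per the labels, thawed lymphoma cells were injected into the tail vein of male C57BL/6 hosts aged 8 weeks, and B cells were isolated with a kit from lymph node suspensions, so host B cells could remain among them. The study's methods for RNA-seq and Ribo-seq differ, in that they describe cells from tumor-bearing mice of both genotypes and mention no injection. RNA-seq and Ribo-seq (sequencing of the mRNA fragments protected by ribosomes) were made from 3 samples of each genotype, giving 12 libraries. The labels call the samples biological replicates without saying whether each was a separate primary tumor, so every error below rests on these samples alone. An SD is the spread between them. An SE comes from the fit, which shares information on variability among all transcripts tested.

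Introns are removed from pre-mRNA by the spliceosome, which assembles stepwise from snRNPs, particles made of a small nuclear RNA and proteins. The Sm proteins form a ring on the small nuclear RNA, U2AF and hnRNP proteins steer the choice of splice sites, and DEAD-box (Ddx) and DEAH-box (Dhx) helicases use ATP to remodel RNA and RNA-protein complexes. Lymphomas driven by Myc are known to depend on the core spliceosome.

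RNA-seq libraries held 4135908 to 6648829 counts and Ribo-seq libraries 975201 to 2793163. Levels below are normalised CPM, the counts of a transcript relative to the library size, with library sizes adjusted by median of ratios separately for RNA-seq and Ribo-seq. In RNA-seq, Prps2 was at 61.3 to 68.8 in Eμ-Myc/+ and at 7.51 to 10.3 in Prps2null libraries. In Ribo-seq, Prps2 footprints stood at 163, 133 and 7.87 in the libraries labelled Eμ-Myc/+ replicates 1 to 3, and at 5.08, 140.5 and 9.70 in those labelled Prps2null. On this gene, Eμ-Myc/+ replicate 3 and Prps2null replicate 2 thus go against their labels in Ribo-seq. Footprint and TE values are given by label, and the members' fitted changes again without these 2 libraries. Each series of values runs over Eμ-Myc/+ replicates 1 to 3 and then over Prps2null replicates 1 to 3, in normalised CPM, and a value in parentheses after RNA levels is the log2 fold change of Prps2null against Eμ-Myc/+ ± SE.

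The start of the annotated 5′ untranslated region was read for 19 of the 25 transcripts from the study's supplemental table, because a C at the first base followed by 4 to 15 pyrimidines (C or T) defines a 5′ terminal oligopyrimidine (TOP) motif, a sequence through which mTORC1 controls translation. Snrpb2 and Hnrnpa0 carried the motif, Lsm14b fell short of it by 1 pyrimidine, and Snrpb and Hnrnpa1 are shown as members that start with a purine. The first 20 bases are printed from 5′ to 3′ on the transcript strand, with the unbroken pyrimidine run at the start in capitals.
Snrpb2: CTCTTCCggcgcggggaagc
Hnrnpa0: CTCTTTgtgtggtgtcccga
Lsm14b: CTTCagactcgggctaagcg
Snrpb: ggaactccaggtccgaggcc
Hnrnpa1: gggcacgttcgttatcgtat
In RefSeq (mm10) Snrpb2 lies on chromosome 2 at 143063069 to 143072052, Snrpb on chromosome 2 at 130171636 to 130179382, Lsm14b on chromosome 2 at 180024900 to 180035466, Hnrnpa0 on chromosome 13 at 58125879 to 58128556, and Hnrnpa1 on chromosome 15 at 103239943 to 103246698. The motif was found in 2 of 19 members (10.5%) and in 56 of 1631 readable 5′ untranslated regions (3.43%), 1226 of which also belong to transcripts on the raised TE list. Only the annotated transcript strand was searched, and an annotated end is not a mapped start site. The annotated regions of the members had a median length of 151 nucleotides, against 149 over all readable ones.

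RNA of nearly all members was lower in Prps2null lymphomas. The 24 members other than Ddx25 had a lower mean, with log2 fold changes of -1.60 (Ddx41) to -0.36 (Ddx54), and Ddx25 was the sole member with a higher mean, at 1.15. Over the 25, the median log2 fold change was -0.91, against 0.08 over all 14682 transcripts tested. By edgeR's quasi-likelihood test at a Benjamini-Hochberg adjusted p under 0.05, 21 members were called lower and 1 higher, where 18.5% of all transcripts tested were called lower and 14.7% higher. The RNA values of the 3 Prps2null libraries all lay below those of the 3 Eμ-Myc/+ libraries for 22 members and above them for 1, while 26.2% and 23.5% of all transcripts were separated in these directions. RNA-seq enters TE as the denominator and so took part in choosing the members, and nothing is read from these counts.

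**Figure D1:**
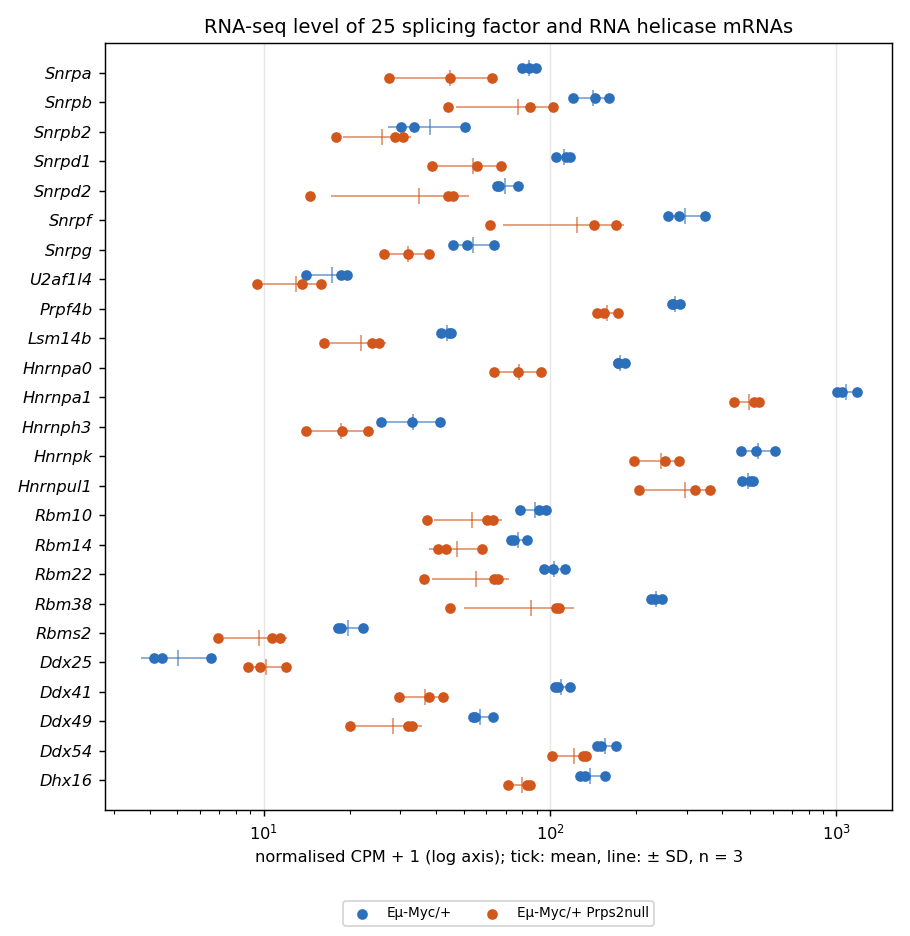
RNA-seq level of the 25 members in each of the 6 libraries (normalised CPM + 1, log axis), with points for libraries, a tick for the mean and a line for ± SD (n = 3), blue for Eμ-Myc/+ and orange for Prps2null. The groups overlap for Snrpb2 and U2af1l4, Prps2null lies to the right for Ddx25 alone, and for the other 22 members every orange point lies to the left of every blue one.

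The summed RNA of all members was 4761, 4253 and 4193 normalised CPM in Eμ-Myc/+ replicates 1 to 3 and 1844, 2387 and 2432 in Prps2null, or 4402 ± 312 against 2221 ± 327 (mean ± SD, n = 3). The sums show a deficit in each Prps2null library, deepest in replicate 1. That library held the lowest of the 6 values for 19 of 25 members. Such a count was not made over all transcripts, so it is not read as a trait of the members. By prefix, the Snrp sum was 788 ± 99.4 in Eμ-Myc/+ and 386 ± 141 in Prps2null, the Hnrnp sum 2304 ± 174 and 1128 ± 105, the Rbm sum 518 ± 15.0 and 246 ± 74.6, and the Ddx sum 323 ± 15.0 and 193 ± 29.4. In Prps2null replicate 1 the Snrp sum was 223, against 480 and 454 in the other two replicates, and the Rbm sum 161, against 295 and 284. The Hnrnp sum was closer between Prps2null replicates, at 1023, 1127 and 1233.

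**Figure D2:**
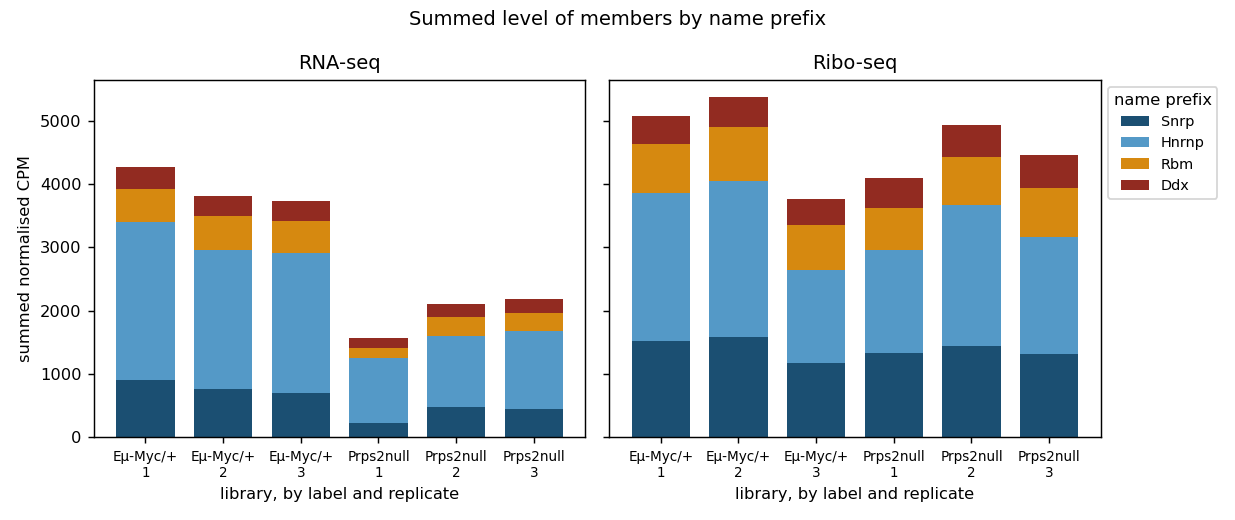
Summed normalised CPM of the members with the 4 prefixes that hold more than 1 gene, as stacked bars for each library by label and replicate, in RNA-seq (left) and Ribo-seq (right). RNA bars are lower in the 3 Prps2null libraries, while in Ribo-seq the library labelled Eμ-Myc/+ replicate 3 is the lowest of the 6.

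The size of the RNA difference depended on the scaling. With library totals in place of median-of-ratios scaling, the median RNA log2 fold change was -0.62 for the members and 0.37 for all transcripts, and 13 members were called lower instead of 21. Rescaling the libraries moves the fold changes of all transcripts by nearly the same amount. The distance between these medians, -0.99 and -0.98 under the 2 scalings, was thus nearly fixed in advance, and nothing is read from it. Cell type markers also differed between genotypes. They were named through the study's lists, so their choice is no more independent than that of the members. Of 7 B cell markers, 4 had a paired name (Cd79a, Ms4a1, Blnk and Cd74), and their summed RNA was 2111 to 3192 in Eμ-Myc/+ and 342 to 737 in Prps2null. Most of the Eμ-Myc/+ sum came from Cd74, at 1595 to 2499 in Eμ-Myc/+ and 151 to 352 in Prps2null. Cd79a was at 400 to 541.5 and 111 to 237, and Blnk at 108 to 143 and 32.7 to 78.1. Within that list Ms4a1 went the other way, at 6.35 to 8.79 and 47.5 to 84.9. Lck, the sole named T cell marker of 3, was at 26.9 to 38.3 and 15.8 to 17.6, the 4 myeloid markers summed to 25.9 to 49.1 and 16.1 to 32.2, and the 4 stromal markers to 57.6 to 123 and 15.2 to 27.4. No named marker was at 0 in any RNA-seq library, and the part of these shifts in the members' values was not tested. In bulk samples, fewer cells of a type and less RNA per cell cannot be told apart.

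The 7 Snrp genes encode proteins of the snRNPs. Snrpf (SmF), a member of the Sm ring, was at 347, 281 and 257 normalised CPM of RNA in Eμ-Myc/+ replicates 1 to 3 and at 60.5, 142 and 168 in Prps2null, a log2 fold change of -1.25 ± 0.29 (SE). Its footprints were at 153, 160.1 and 120.2 by the Eμ-Myc/+ labels and 128, 139.6 and 126 by the Prps2null labels, a narrower range than in RNA. Snrpd1 (SmD1), another ring protein, had RNA at 116, 113 and 104 against 37.7, 66.2 and 54.7 (-1.06 ± 0.21). Footprints on Snrpd1 stood at 232, 266 and 149 and at 166, 244 and 166, so the libraries that go against their labels each resembled the other genotype. Snrpd2 (SmD2) RNA was at 76.1, 64.2 and 65.6 and 13.5, 42.9 and 44.9 (-1.01 ± 0.31), the lowest value again being in Prps2null replicate 1. On Snrpd2, footprints of 193, 212 and 149.6 and 169, 178 and 146 overlapped. For Snrpb, which encodes SmB and shares sequence with Snrpn, RNA was at 159.6, 142 and 119 and 43.0, 101 and 83.8 (-0.88 ± 0.26). Its footprints were at 433, 425 and 277 and 356, 394 and 353, with the lowest value in the library labelled Eμ-Myc/+ replicate 3. Snrpg (SmG), which has processed pseudogenes that could share its reads, was at 63.0, 44.8 and 50.2 and 25.4, 36.7 and 31.0 in RNA (-0.76 ± 0.21). Snrpg footprints were at 189.9, 212 and 121 and 151, 181 and 141, again lowest in the library labelled Eμ-Myc/+ replicate 3.

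Beside the ring proteins, Snrpa and Snrpb2 encode the related U1 and U2 snRNP proteins that each bind a stem-loop of their small nuclear RNA. RNA of Snrpa was at 88.1, 79.2 and 83.4 in Eμ-Myc/+ and 26.5, 61.6 and 43.6 in Prps2null (-0.92 ± 0.24), which separates the groups. Its footprints were at 153, 170.2 and 183 and 183, 148 and 199.6, with no such separation. Snrpb2 RNA was at 49.3, 32.4 and 29.3 and 16.9, 29.7 and 27.8 (-0.56 ± 0.25), and the groups overlapped because Prps2null replicate 2 exceeded Eμ-Myc/+ replicate 3. Snrpb2, with the TOP motif shown above, had footprints at 166, 145 and 171 and 181, 163 and 179.5, within a narrow range in all 6 libraries. It was the sole Snrp member whose RNA was not called.

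Splice site recognition, spliceosome assembly and LSm proteins were represented by 1 member each. U2af1l4 encodes a paralog of the small U2AF subunit, which reads the AG at the 3′ splice site. U2af1l4 RNA was low, at 17.6, 13.0 and 18.5 and 8.45, 14.8 and 12.6, and overlapped between genotypes (-0.43 ± 0.27). The footprints on it were at 19.8, 21.2 and 19.1 and 19.0, 33.8 and 26.4. Prpf4b encodes a kinase that phosphorylates proteins of the U4/U6.U5 tri-snRNP as the spliceosome assembles. Its RNA was at 284, 268 and 266 and 172, 153 and 145, among the tightest groups (-0.80 ± 0.18). Footprints on Prpf4b stood at 311, 282 and 218 and 197, 299 and 229. Lsm14b carries an LSm domain but is known as a cytoplasmic regulator of mRNA translation and storage, not as a splicing factor. Its RNA was at 43.4, 40.7 and 43.9 and 15.3, 24.4 and 23.0 (-1.02 ± 0.21), and its footprints at 81.3, 59.5 and 57.2 and 52.5, 66.3 and 50.0.

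The 5 Hnrnp members bind pre-mRNA and shape splicing, export and stability, and all 5 were separated between genotypes in RNA. Hnrnpa1, a repressor of splice sites that is also known to shuttle mRNA to the cytoplasm, was at 1175, 1006 and 1042 and 514, 437 and 537 (-1.11 ± 0.21). Many processed pseudogenes of Hnrnpa1 exist, so its count is uncertain. Footprints on Hnrnpa1 were at 582, 651 and 372 and 437, 491 and 500.5, lowest in the library labelled Eμ-Myc/+ replicate 3. Hnrnpk, a poly(C)-binding protein, had RNA at 608, 521 and 463 and 195, 281 and 251 (-1.13 ± 0.21). Its footprints, at 1081, 1028 and 597 and 649, 974 and 780.5, put the libraries labelled Eμ-Myc/+ replicate 3 and Prps2null replicate 2 nearer to the other genotype than to their own. Hnrnpa0, an AU-rich element binding member of the A/B family whose start carries the TOP motif shown above, was at 172, 182 and 171 and 92.1, 76.4 and 62.7 in RNA (-1.18 ± 0.19). The footprints of Hnrnpa0, 281, 364 and 169 and 168, 307 and 197, were split in the same way as those of Hnrnpk. Hnrnpul1, an hnRNP U-like protein linked to RNA export and DNA repair, had RNA at 509.8, 468 and 497 and 204, 319.8 and 360 (-0.74 ± 0.23). In contrast to Hnrnpk, its footprints were nearly level over the libraries, at 347, 345 and 314 and 346, 388 and 326. Hnrnph3, of the H/F family that binds G-rich runs, was at 40.3, 24.8 and 32.0 and 17.8, 13.0 and 22.1 (-0.87 ± 0.25), and its footprints at 49.3, 61.9 and 24.2 and 27.4, 57.9 and 41.4.

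Of the 5 Rbm members, Rbm38 differed most in RNA. Rbm38, a target of p53 that controls mRNA stability, was at 224, 245 and 231 and 43.6, 104 and 106 (-1.46 ± 0.27). Prps2null replicate 1 fell well under the other two. Rbm38 footprints were at 254, 269.6 and 173 and 172, 250.5 and 159. Rbm22, a zinc finger protein of the catalytic spliceosome that contacts the U6 small nuclear RNA, had RNA at 112, 94.0 and 101 and 35.2, 65.1 and 62.7 (-0.91 ± 0.22), while its footprints were nearly level, at 216, 224 and 209 and 201, 186 and 214. Rbm10, a regulator of exon skipping, was at 90.3, 95.4 and 77.7 and 36.3, 59.4 and 62.1 in RNA (-0.74 ± 0.21) and at 101, 119 and 115 and 113, 133 and 142 in footprints. Both measures of Rbm10 were thus low in Prps2null replicate 1 among its group. Rbm14, a paraspeckle protein and transcriptional coactivator, had RNA at 73.9, 82.1 and 72.3 and 39.5, 57.1 and 42.3 (-0.72 ± 0.19) and footprints at 185, 224 and 194 and 162, 177 and 256. Rbms2 belongs to a family of single-strand binding proteins outside the spliceosome and entered by its symbol. Its RNA, at 17.6, 17.3 and 21.2 and 5.94, 9.68 and 10.4 (-1.09 ± 0.27), was low but separated, and its footprints were at 15.0, 19.2 and 9.90 and 13.8, 17.7 and 12.5.

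Among the helicases, Ddx41 and Dhx16 act in the spliceosome, and Ddx49 and Ddx54 are known for ribosomal RNA processing in the nucleolus. Ddx41, which is also a sensor of cytosolic DNA, had the largest RNA difference of the 25, at 106, 103 and 116 and 28.8, 36.9 and 41.4 (-1.60 ± 0.19), or 3.03-fold lower by the fit. Its footprints were at 102, 111 and 49.8 and 53.3, 134 and 78.7, and split by the Prps2 footprints instead of by the labels. Dhx16, the helicase that activates the spliceosome before the first catalytic step, was at 154, 126 and 131 and 82.0, 84.1 and 70.1 in RNA (-0.80 ± 0.18). Footprints on Dhx16 stood at 100.3, 129 and 124 and 128, 126 and 136, overlapping between the labels while the RNA did not. Ddx49 RNA was at 62.0, 53.6 and 53.0 and 19.0, 31.0 and 32.1 (-1.03 ± 0.22), and Ddx49 footprints at 133, 122 and 117 and 132, 109 and 127. Ddx54 had the smallest RNA difference, at 169, 150.2 and 145 and 100.3, 133 and 129 (-0.36 ± 0.19), and was not called. Ddx54 footprints, at 212, 244 and 247 and 278, 265 and 309.8, were higher in all 3 libraries labelled Prps2null. Ddx25, a helicase known from male germ cells, was the exception in RNA, at 3.42, 5.54 and 3.15 and 11.0, 7.84 and 8.72 (1.15 ± 0.36). Its raw counts were 14, 34 and 14 in Eμ-Myc/+ and 48, 47 and 47 in Prps2null, and the call was lost without Eμ-Myc/+ replicate 1 or replicate 3. Ddx25 footprints were 0, 0 and 3.78 and 4.98, 0 and 2.29 normalised CPM, too few to be tested, where 3 counts correspond to 1.03 to 3.10 in these libraries.

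**Figure D3:**
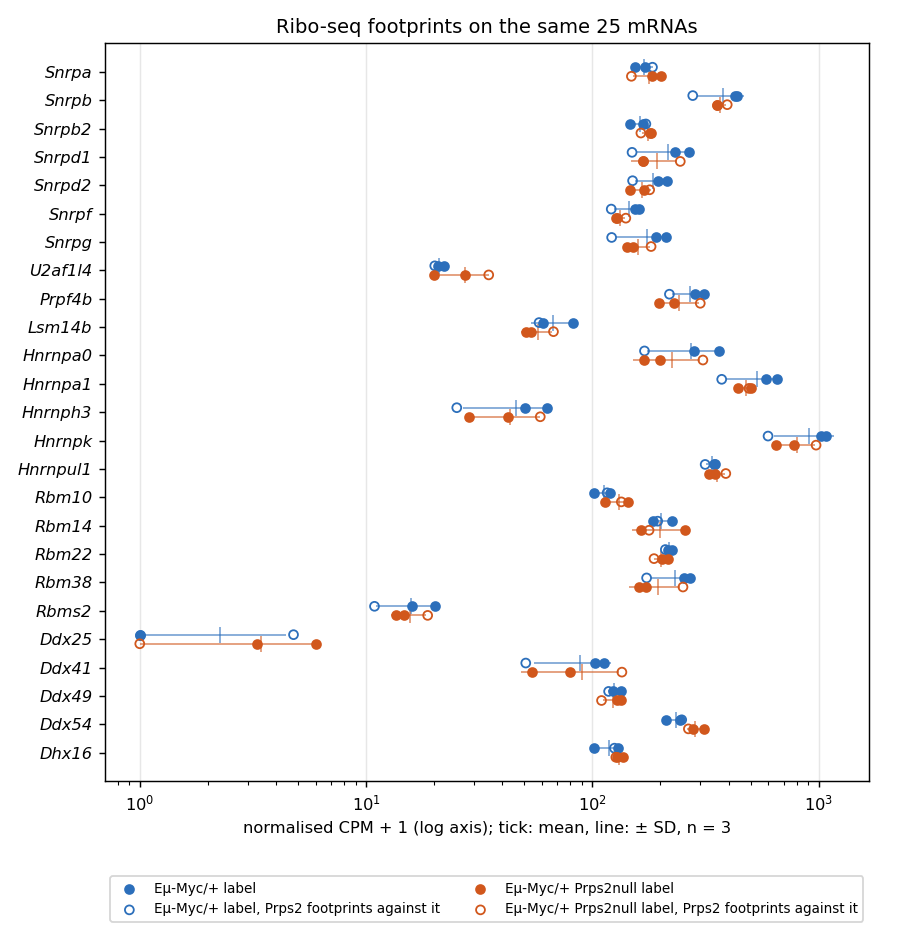
Ribo-seq footprints on the 25 members in each of the 6 libraries (normalised CPM + 1, log axis), colored by label, with open points for the 2 libraries whose Prps2 footprints go against their label, a tick for the mean and a line for ± SD (n = 3). For Hnrnpk, Hnrnpa0 and Ddx41 each open point lies nearer to the filled points of the other genotype than to those of its own.

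In footprints, the groups by label could not be separated. By label, 24 members were tested and none was called, as for all 9031 transcripts (0% higher and 0% lower in Prps2null by edgeR, 47 transcripts and 0 members at an unadjusted p under 0.05, and 0 calls by DESeq2). The median log2 fold change was -0.06 for the members and 0.00 for all transcripts, and member values ran from -0.28 (Hnrnpa0) to 0.40 (U2af1l4). Ddx54 alone was higher in every library labelled Prps2null, a separation found upward in 2.29% and downward in 2.31% of all transcripts. The library labelled Eμ-Myc/+ replicate 3 held the lowest Eμ-Myc/+ footprint value for 18 members. The library labelled Prps2null replicate 2 held the highest Prps2null value for 15. These counts were not made over all transcripts either, and are not read as traits of the members. The summed member footprints were 5589, 5866 and 4184 normalised CPM by the Eμ-Myc/+ labels and 4487, 5462 and 4900 by the Prps2null labels. Summed footprints of the 4 named B cell markers moved in the same libraries, at 2545, 2460 and 1223 and at 1501, 2199 and 1403. Cd74 alone was at 1504, 1479 and 480 and at 616.5, 1291 and 608 of that sum. Within that sum Ms4a1 went the other way in these libraries, at 38.5, 23.9 and 199 and at 226, 22.2 and 222. Lck footprints were at 46.4, 36.8 and 27.2 and at 24.4, 47.4 and 24.0. The myeloid markers summed to 64.3 to 149 and 100.2 to 226, and the stromal markers were highest in the library labelled Prps2null replicate 2, at 592. The part of these in the members' footprints was not tested.

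Without the 2 libraries that go against their labels, 2 Eμ-Myc/+ and 2 Prps2null Ribo-seq libraries remained, and 9 members were called lower and 1 higher, where 17.9% and 18.0% of all transcripts were called in these directions. The median of the members was -0.32, against 0.02 over all transcripts. The 9 were Hnrnpa0 (-0.82 ± 0.14), Ddx41 (-0.68 ± 0.20), Hnrnph3 (-0.68 ± 0.25), Rbm38 (-0.66 ± 0.13), Snrpd1 (-0.58 ± 0.14), Hnrnpk (-0.56 ± 0.11), Prpf4b (-0.48 ± 0.13), Snrpg (-0.46 ± 0.14) and Hnrnpa1 (-0.39 ± 0.11), and Ddx54 was the member called higher (0.37 ± 0.13, log2 fold change ± SE). These are hnRNP proteins, 2 Sm ring proteins, a tri-snRNP kinase, a helicase and an mRNA stability factor. The remaining 14 ran from -0.47 (Lsm14b) to 0.25 (Snrpa), among them Rbms2 at -0.34, Snrpd2 at -0.36, Snrpf at -0.30, Snrpb at -0.28, Rbm22 at -0.08, Hnrnpul1 at -0.04, Ddx49 at 0.03, Rbm14 at 0.04, U2af1l4 at 0.16, Dhx16 at 0.20, Snrpb2 at 0.22 and Rbm10 at 0.22. The 2 remaining libraries of each genotype did not overlap for 18 of 24 members, 15 lower and 3 higher in Prps2null, where 33.8% and 35.0% of all transcripts were so separated. The 3 higher were Ddx54, Snrpa and Snrpb2.

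**Figure D4:**
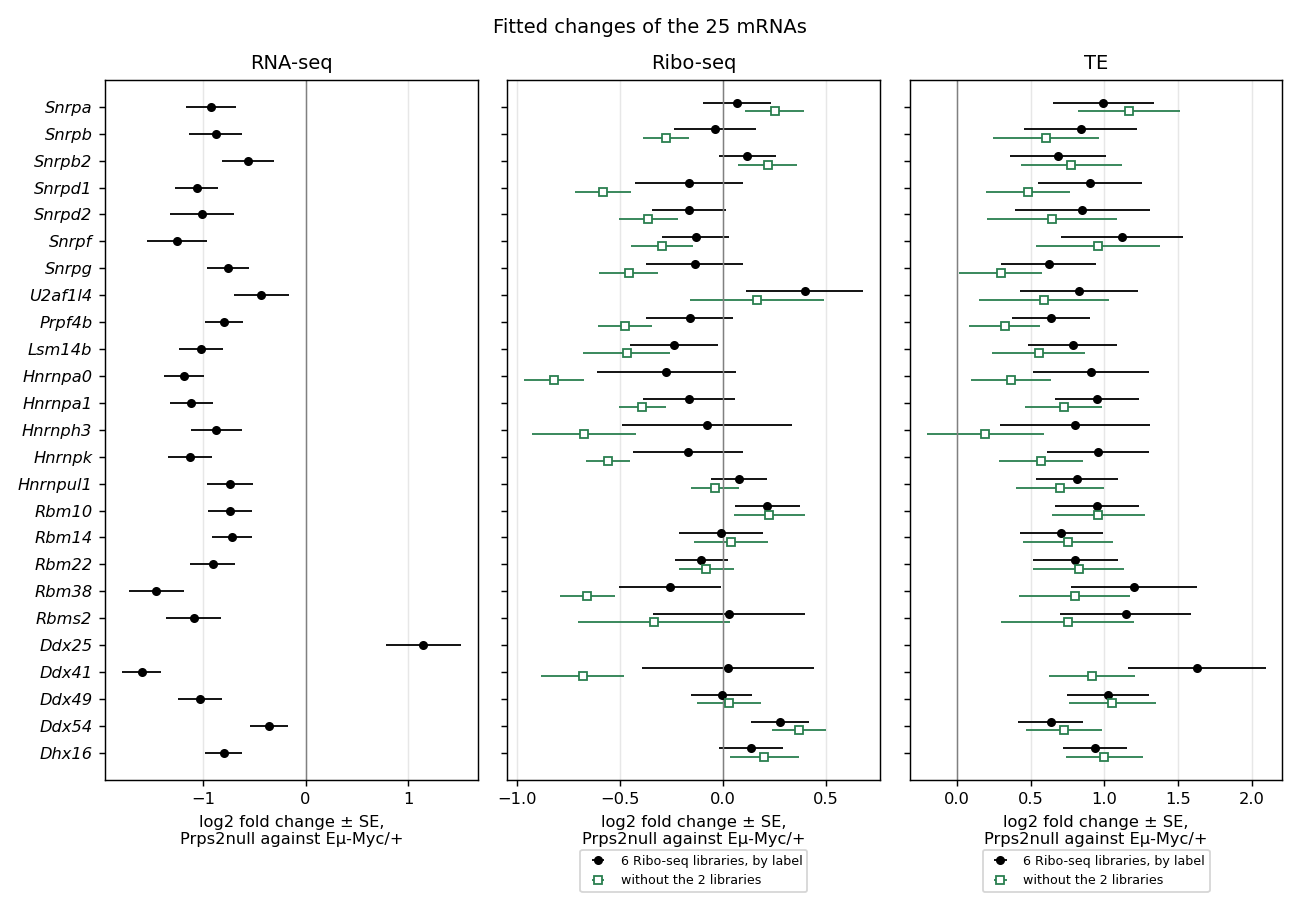
Fitted log2 fold changes (Prps2null against Eμ-Myc/+, ± SE) of the members in RNA-seq, Ribo-seq and TE, by label (black circles) and without the 2 Ribo-seq libraries (green squares), with no Ribo-seq or TE value for Ddx25. RNA values lie below 0 for the 24 other members, Ribo-seq values lie around 0 by label, and TE values lie above 0 in both fits.

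Footprints per RNA, the ratio of normalised CPM in Ribo-seq to that in RNA-seq for the same transcript, ranged widely among members. By label, the 24 measured members ran from 0.490 (Snrpf) to 4.35 (Snrpb2) in Eμ-Myc/+, with a median of 1.53, against 1.59 over all transcripts tested. In Prps2null they ran from 0.961 (Hnrnpa1) to 7.03 (Snrpb2), with a median of 2.59, against 1.95. Within the Sm ring the ratio in Eμ-Myc/+ was 0.490 for Snrpf, 1.94 for Snrpd1, 2.70 for Snrpd2, 2.70 for Snrpb and 3.30 for Snrpg. These ratios of mRNAs carry no error, differences between them were not tested, and reads shared with pseudogenes could alter them. Without the 2 libraries these were 0.531, 2.25, 2.96, 3.06 and 3.81, again lowest for Snrpf and highest for Snrpg. For Snrpb2 the ratio was 4.35 in Eμ-Myc/+ and 7.03 in Prps2null, and 4.20 and 7.27 without the 2 libraries.

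The TE change, fitted as the interaction of genotype and assay, was above 0 for each of the 24 members tested, a direction that the choice of 19 members by raised TE already fixes for most. Its median was 0.87 by label, against 0.28 over all transcripts, and member values ran from 0.62 (Snrpg) to 1.63 (Ddx41). Dhx16, itself named through the raised TE list, passed the threshold of the fit at 0.94 ± 0.22 (log2 ± SE), where 2.16% of all transcripts were called higher in Prps2null, and nothing is read from this, since the same contrast chose it. The call was lost in each fit without 1 replicate, without the low-count filter, with library totals and with a replicate block. It was also lost with a lymphoma block, which joined the RNA-seq and Ribo-seq libraries of the same genotype label and replicate number. That block follows the labels also for the 2 libraries that go against them. DESeq2 called 7 members (Ddx41, Ddx49, Ddx54, Dhx16, Hnrnpa1, Hnrnpul1 and Rbm10) of the 22 it gave an adjusted p. Over all transcripts DESeq2 called 607 of 6540 higher (9.28%), against 194 by edgeR. Without the 2 libraries the median was 0.72, against 0.34 over all transcripts, and Dhx16 was at 1.00 ± 0.26, the 1 member past the threshold, with 3.14% of all transcripts called higher. Members then ran from 0.19 ± 0.40 (Hnrnph3) to 1.17 ± 0.35 (Snrpa).

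By role, the TE values of the Sm ring genes were 1.12 for Snrpf, 0.90 for Snrpd1, 0.85 for Snrpd2, 0.84 for Snrpb and 0.62 for Snrpg, beside 0.99 for Snrpa and 0.68 for Snrpb2. The standard errors of the members' TE values were 0.22 to 0.51, and no difference between members was tested. Among the hnRNP genes TE was between 0.80 (Hnrnph3) and 0.96 (Hnrnpk), with 0.81 for Hnrnpul1, 0.91 for Hnrnpa0 and 0.95 for Hnrnpa1. In the Rbm group it was 1.20 for Rbm38, 1.14 for Rbms2, 0.95 for Rbm10, 0.80 for Rbm22 and 0.71 for Rbm14. The helicases Ddx49 and Ddx54 stood at 1.02 and 0.64, and U2af1l4, Lsm14b and Prpf4b at 0.83, 0.79 and 0.64. Without the 2 libraries, TE went for Ddx41 from 1.63 to 0.92, Hnrnpa0 from 0.91 to 0.36 and Hnrnph3 from 0.80 to 0.19. Ddx49 (1.05), Rbm10 (0.96) and Dhx16 (1.00) stayed near their values by label. The Snrp members were then at 0.95 (Snrpf), 0.48 (Snrpd1), 0.64 (Snrpd2), 0.60 (Snrpb), 0.29 (Snrpg), 1.17 (Snrpa) and 0.78 (Snrpb2). Hnrnpk stood at 0.57, Hnrnpul1 at 0.70 and Hnrnpa1 at 0.72. Rbm38, Rbms2, Rbm22 and Rbm14 were at 0.80, 0.75, 0.82 and 0.75, and Ddx54 at 0.73. U2af1l4, Lsm14b and Prpf4b were at 0.59, 0.55 and 0.32.

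By label, TE changes of the TOP motif carriers lay within the range of the other members. Snrpb2 and Hnrnpa0, whose starts are printed above, had TE changes of 0.68 ± 0.33 and 0.91 ± 0.39, and Lsm14b, the near miss, 0.79 ± 0.30. Snrpb and Hnrnpa1, which start with a purine, had 0.84 ± 0.39 and 0.95 ± 0.29. Without the 2 libraries, Snrpb2, Hnrnpa0, Lsm14b, Snrpb and Hnrnpa1 stood at 0.78, 0.36, 0.55, 0.60 and 0.72. With 2 carriers, no test was made. Raised TE chose most members, so their range cannot show whether carriers differ.

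Other genes of splicing and RNA processing, listed outside the 10 prefixes, also had lower RNA in Prps2null lymphomas. Of 141 listed genes, 31 had a paired name, again through the study's lists, and the choice is therefore no more independent than that of the members. In RNA, 26 of the 31 were called lower and 0 higher, beside 18.5% and 14.7% of all transcripts. Their log2 fold changes had a median of -0.89 and ran from -2.21 to -0.21. Eif4a2, a translation initiation helicase and not a splicing factor, had the largest difference, at 329, 308 and 321 normalised CPM in Eμ-Myc/+ and 50.0, 65.1 and 91.6 in Prps2null. Ncbp2 followed, with a log2 fold change of -1.74. Snrnp25, a protein of the minor spliceosome, had the smallest difference, at 20.5, 20.2 and 16.4 and 8.45, 20.7 and 19.8. Tra2b, an activator of exon inclusion, was at 443, 426 and 378 and 149.9, 206 and 224. Smn1, which loads Sm proteins onto small nuclear RNA, was at 30.8, 28.7 and 27.5 and 13.0, 18.0 and 19.8. In footprints by label none of the 31 was called (1 at an unadjusted p under 0.05), and without the 2 libraries 9 were lower and 1 higher, beside 17.9% and 18.0% of all transcripts, with a median of -0.28. Their median TE change was 0.82 by label and 0.62 without the 2 libraries, with 0 called by edgeR in both.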

How the data were processed

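RNA-seq and Ribo-seq were analysed from 1 deposited table of 20561 transcripts and 12 libraries. Per the methods and the submitters' processing notes, linkers were trimmed with cutadapt 2.3, molecular identifiers were collapsed, and reads were aligned with Bowtie2 2.3.5 to 1 isoform per gene, that with the longest CDS, and mm10 is the build named. The RNA-seq values the authors deposited are raw counts per transcript. For Ribo-seq the authors deposited expected counts, made from length-selected footprints and corrected for stalling, and these were rounded here to whole numbers. Whether the counting used strand is not given in the sources used here. Reads of paralogs and pseudogenes may be shared.

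Each assay was filtered with filterByExpr, scaled by median of ratios and tested over all its transcripts with edgeR 4.0.16 (quasi-likelihood, limma 3.58.1, R 4.3.3), with a Benjamini-Hochberg adjusted p under 0.05. TE change was the interaction of genotype and assay over all 12 libraries. Alternatives were TMM scaling, library totals, no filter, DESeq2 1.42.0, blocks for replicate number or for lymphoma (by genotype label and replicate number), and fits without single replicates or without both Ribo-seq libraries that go against their labels. The scripts were tested on simulated data. The members and gene lists were chosen with earlier results of these data known. All members were named with their fold changes, with values in every library for those at a mean of at least 20 CPM in RNA-seq, with groups that do not overlap, or named through the list raised at both levels. Of the other lists, only genes with a paired name could be found. The fold changes and p-values in the study's supplemental lists were not used.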

Additional observations from a re-analysis of the deposited data

How the results depend on the processing

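No alternative turned the direction of a member called in the main fits, 21 lower and 1 higher in RNA-seq and 1 higher in TE. In Ribo-seq no member was called by label, so none could turn there. Ddx41 footprints went from 0.02 ± 0.42 by label to -0.68 ± 0.20 without both libraries that go against their labels, where they were called. In RNA-seq, members called lower numbered 13 with library totals, where Hnrnph3, Hnrnpul1, Rbm10, Rbm14, Snrpa, Snrpb, Snrpd2 and Snrpg were lost, and 15 to 21 when a replicate was left out, the lowest without Eμ-Myc/+ replicate 1. Members called higher were 0 to 1, and 0 without Eμ-Myc/+ replicate 1 or 3. With library totals, all transcripts called higher and lower numbered 3851 and 1668, against 2163 and 2712 by median of ratios. In Ribo-seq, leaving out both libraries that go against their labels gave 1 member higher, 9 lower and a median of -0.32, and leaving out single replicates gave medians of -0.236 to 0.037. In TE, members called higher were 0 with library totals (median 0.58), 0 without the filter, 0 with the lymphoma block, 7 with DESeq2, and 0 in each fit without 1 replicate. DESeq2 called 9.28% of all transcripts higher in TE. As a check of pairing, each library's deviations from the mean of its genotype label were correlated between same-numbered libraries. The correlations were -0.24, -0.13 and 0.02 in RNA-seq and -0.62, 0.75 and 0.71 in Ribo-seq. The Ribo-seq values include both libraries that go against their labels, so they cannot tell whether libraries were paired. In RNA-seq no pair exceeded 0.1, and a pairing is not established. With a replicate block, 21 members were lower and 1 higher in RNA-seq (median -0.95), 0 were called in Ribo-seq, and 1 was higher in TE (median 0.95), namely Ddx41 in place of Dhx16. The cause of these shifts was not tested. With 3 libraries per group and 975201 to 2793163 Ribo-seq counts, differences smaller than the spread between libraries were not detectable. In Ribo-seq by label, that spread includes the 2 libraries that go against their labels.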
